A study of Homo sapiens with 30 samples.

Results

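The spliceosomal snRNA genes were 34 of the 57992 genes in the deposited expression table. They were taken as every gene annotated as an snRNA whose symbol begins with RNVU1- or RNU and does not end in P, the mark of a pseudogene, which left 1866 other snRNA rows aside. The 34 genes held 4 of U1, 11 of variant U1, 1 of U2, 2 of U4, 5 of U5, 5 of U6, 1 of variant U6 and 1 each of U4atac, U6atac, U11, U12 and U7. U7, although taken by the rule, acts in the 3′ end processing of histone mRNA and not in splicing.

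The libraries came from a study of Omomyc, a miniprotein derived from the dimerization and DNA binding region of MYC that pairs with MAX and competes with MYC for E boxes. HCT116 colon carcinoma cells, in which MYC protein is stabilized, were left untreated or given 2 μM or 10 μM Omomyc for 6 h or 24 h. Ramos Burkitt's lymphoma cells, which carry a MYC translocation, were left untreated or given 0.5 μM or 2.5 μM Omomyc for 6 h or 24 h. Each of the 10 groups had 3 libraries of total RNA depleted of rRNA, and each line is a single line with 1 untreated group, for which no time is given. The methods add the protein transfection reagent ProteoJuice to the HCT116 treatments and do not say whether the untreated cells received it, nor how Ramos cells were treated for sequencing. They also name a slightly higher low dose for HCT116 than the labels do, and the labels of the 24 h groups carry a shorter time in one field than in their titles; doses and times here are those of the titles. Of 8 epithelial markers, 6 had a mean of at least 0.5 RPKM (reads scaled to gene length and to the library's total) in HCT116, while VIL1 did not exceed 0.0602 RPKM and CDX1 was listed at 0 throughout. In Ramos, 7 of 7 B cell markers reached that mean and 0 of 8 epithelial markers did.

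The snRNAs are short, noncoding nuclear RNAs that, with their proteins, form the small nuclear ribonucleoproteins (snRNPs) of the spliceosome. U1 pairs with the 5′ splice site and U2 with the branch site, while U4 holds U6 inactive in the U4/U6.U5 tri-snRNP until the spliceosome is activated. U11, U12, U4atac and U6atac take the corresponding roles in the minor spliceosome, which shares U5 with the major one. Most of these genes are transcribed by RNA polymerase II from promoters without a TATA box, and U6 and U6atac by RNA polymerase III.

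The sequences below show what separates genes that the read counting could and could not tell apart. Each gene is a single stretch without an intron, and sequences are those of the annotated transcripts, 5′ to 3′, with T for U and positions on GRCh38. In RNU1-1, capitals mark the stretch that pairs with the 5′ splice site, and the letters ACTTACCTG, searched on the transcript strand, were in 4 of 4 U1 and 8 of 11 variant U1 genes against 2.63% of all 1900 snRNA transcripts.
RNU1-1: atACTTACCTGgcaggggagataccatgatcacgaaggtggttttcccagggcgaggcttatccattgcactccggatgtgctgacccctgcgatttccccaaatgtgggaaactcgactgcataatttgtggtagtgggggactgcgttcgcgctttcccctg
RNVU1-7, a variant U1 gene, differed from RNU1-1 at 1 of 164 positions, written T150C with the base of RNU1-1 first and counted from 1 at the 5′ end; the capital marks it.
RNVU1-7: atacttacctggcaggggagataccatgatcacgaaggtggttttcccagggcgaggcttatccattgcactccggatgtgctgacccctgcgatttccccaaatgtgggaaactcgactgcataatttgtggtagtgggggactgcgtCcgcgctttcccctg
In RNVU1-3 and RNVU1-15, capitals mark the bases at the place of that pairing stretch, where RNVU1-3 carried C4T and C8T and RNVU1-15 carried C9T, relative to RNU1-1.
RNVU1-3: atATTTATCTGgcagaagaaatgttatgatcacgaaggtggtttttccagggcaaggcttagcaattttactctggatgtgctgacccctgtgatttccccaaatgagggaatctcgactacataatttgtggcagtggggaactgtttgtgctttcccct
RNVU1-15: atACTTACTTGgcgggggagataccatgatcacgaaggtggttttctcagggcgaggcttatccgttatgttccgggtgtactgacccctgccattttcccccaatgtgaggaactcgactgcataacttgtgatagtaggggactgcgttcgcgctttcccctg
The U4 genes RNU4-1 and RNU4-2 were identical at 97.2% of 141 positions, and capitals mark their 4 differences, C37T, G88A, C99A and C113T, with the base of RNU4-1 first.
RNU4-1: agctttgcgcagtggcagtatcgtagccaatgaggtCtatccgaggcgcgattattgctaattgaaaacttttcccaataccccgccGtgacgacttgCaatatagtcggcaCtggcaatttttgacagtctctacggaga
RNU4-2: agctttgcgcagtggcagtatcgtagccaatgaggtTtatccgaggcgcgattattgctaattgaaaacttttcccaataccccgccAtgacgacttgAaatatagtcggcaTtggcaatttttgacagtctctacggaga
In RNU4ATAC, the U4 counterpart of the minor spliceosome, capitals mark the letters ATTTTTG of the Sm site, which were in 6.11% of all snRNA transcripts.
RNU4ATAC: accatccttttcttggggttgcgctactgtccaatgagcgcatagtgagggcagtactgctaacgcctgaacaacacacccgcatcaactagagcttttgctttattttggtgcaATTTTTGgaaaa

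The 34 genes had 27 distinct sequences. The U1 genes RNU1-1, RNU1-2, RNU1-3 and RNU1-4 and the variant gene RNVU1-18 shared 1 sequence, as did 3 further rows outside the rule, RNU1-27P, RNU1-28P and 1 unnamed snRNA locus. Reads of U1 could therefore not be placed on 1 of these 8 rows, and their split between rows came from the authors' counting. RNU1-1 and RNU1-3 were within 0.001 RPKM of each other in 20 of 30 libraries, and RNU1-2 and RNU1-4 in 25 of 30. In replicate 2 of HCT116 at 10 μM for 6 h, RNU1-1 was at 62.2 RPKM and RNVU1-18, of the same sequence, at 2621. U1 is hence given below mainly as the sum of the 8 rows. RNU6-1, RNU6-2 and RNU6-9 also shared 1 sequence, as did RNU6-3P, RNU6-4P, RNU6-5P and RNU6-6P outside the rule. RNU6-7 and RNU6-8 shared another, and RNU2-1 was identical to 10 unnamed snRNA rows.

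The RPKM values were whole multiples of 1 read, within 0.02, for 81.9 to 89.5% of low values of genes of 60 to 400 bases, which put 18.7 to 43.3 M reads (M, mega) behind each library. Untreated HCT116 libraries had 39.0 to 43.3 M and those at 6 h 18.7 to 28.2 M. Genes of up to 300 bases took 15.6 to 21.3% of the summed RPKM in untreated HCT116, 24.8 to 29.9% at 2 μM for 6 h and 28.04 to 44.6% at 10 μM for 6 h, where replicate 3 had the highest share. In the other 7 groups the share was 16.9 to 25.4%. As RPKM is a share of each library, a rise in snRNA and a loss of other RNA per cell cannot be told apart. Values are listed in the order of replicates 1, 2 and 3 throughout.

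In HCT116 at 6 h, U1, U4 and U4atac were higher than in untreated cells at both doses, with means of summed U1 3.78-fold and 5.52-fold, RNU4-2 6.98-fold and 4.69-fold and RNU4ATAC 6.57-fold and 6.06-fold higher on the log2(RPKM + 0.5) scale. At 24 h the summed U1 lay within the range of untreated cells, and the U4 genes stayed above untreated cells at 2 μM only. In Ramos, 2 genes of the U1 sequence passed the test at 6 h and 0 of 14 genes tested at 24 h. Tests were made with limma on log2(RPKM + 0.5) over all genes with a mean of at least 0.5 RPKM in the libraries compared, and a gene was called at an adjusted p under 0.05 (Benjamini-Hochberg). Nothing says that replicates came from separate cultures, so p measures the spread between these libraries only.

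At 2 μM for 6 h, 22 of the 34 genes passed the filter, 12 rose and 0 fell. Over all genes tested, 47.3% were called, 15.5% as higher and 31.8% as lower. The median log2 fold change was 0.99 over the 22 genes and -0.12 over all genes. At 10 μM for 6 h, 11 of 22 rose and 0 fell, where 30.0% of all genes were called, 8.84% as higher, with medians of 1.07 and -0.11. The count without replicate 3 of that group was 12. The calls covered 8 and 7 distinct sequences. When libraries were instead scaled to an equal sum over genes of up to 300 bases, an alternative chosen after seeing the data, 8 genes were higher and 4 lower at 2 μM and 4 higher and 5 lower at 10 μM, and the median of all genes moved to -0.996 and -1.37. The genes gained as lower under this scaling were RNU5F-1, RNVU1-19 and RNU2-1 at both doses, RNU5D-1 at 2 μM and RNVU1-7 and RNU6ATAC at 10 μM.

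At 2 μM for 24 h, 3 of 22 genes were higher than in untreated HCT116 and 1 was lower, where 27.3% of all genes were called (16.6% higher, 10.8% lower). At 10 μM for 24 h, 1 of 22 was higher and 4 were lower, where 35.2% were called (19.5% higher, 15.7% lower). That balance was not stable, with 4 higher and 4 lower under an equal sum of RPKM, 4 and 2 with the replicate block, 4 and 1 without untreated replicate 1, 0 and 7 without untreated replicate 3 and 3 and 4 without treated replicate 3. Of the 4 genes lower at 10 μM for 24 h, RNU5F-1 passed the filter through untreated cells alone. Among the 21 genes past it in each group, 1 was higher and 3 were lower. Neither share of called members, at 2 or 10 μM, was above that of all genes. Between 24 h and 6 h, 16 of 22 genes were lower at 24 h with 2 μM, where 40.8% of all genes were called, 30.9% as higher and 9.85% as lower. With 10 μM, 9 of 21 were lower, where 7.86% were called, 5.80% as higher and 2.06% as lower. The calls of 24 h against 6 h covered 12 of 18 distinct sequences tested at 2 μM and 7 of 17 at 10 μM. Scaled to genes of up to 300 bases, the lower calls at 24 h against 6 h were lost for RNVU1-3 and RNVU1-15 at both doses and for RNU4-1, RNU4-2, RNU4ATAC and RNU5D-1 at 10 μM. The comparisons with untreated cells share the 3 untreated libraries, and those of 24 h with 6 h share the treated ones.

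**Figure D1:**
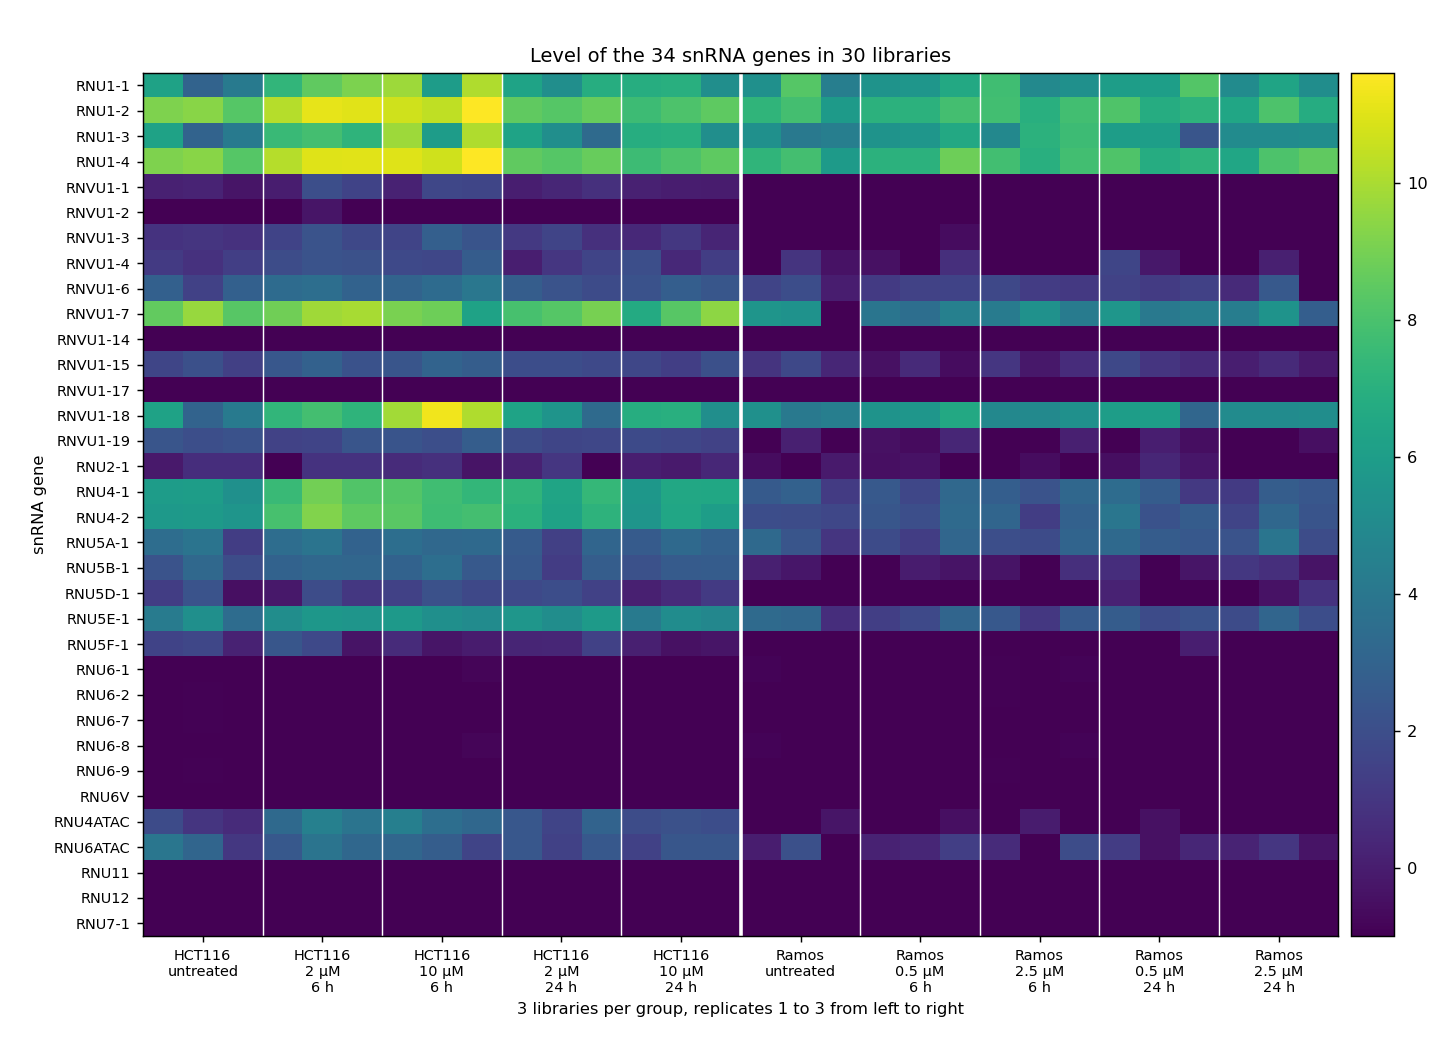
Heat map of log2(RPKM + 0.5) of the 34 snRNA genes (one per line, by family) in the 30 libraries (columns, by group). The U1 rows, RNVU1-18, RNVU1-7 and the U4 rows carry the highest values, the U4 rows are brightest in HCT116 at 6 h, and the U6, U11, U12 and U7 rows sit at or near 0 in all libraries.

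**Figure D2:**
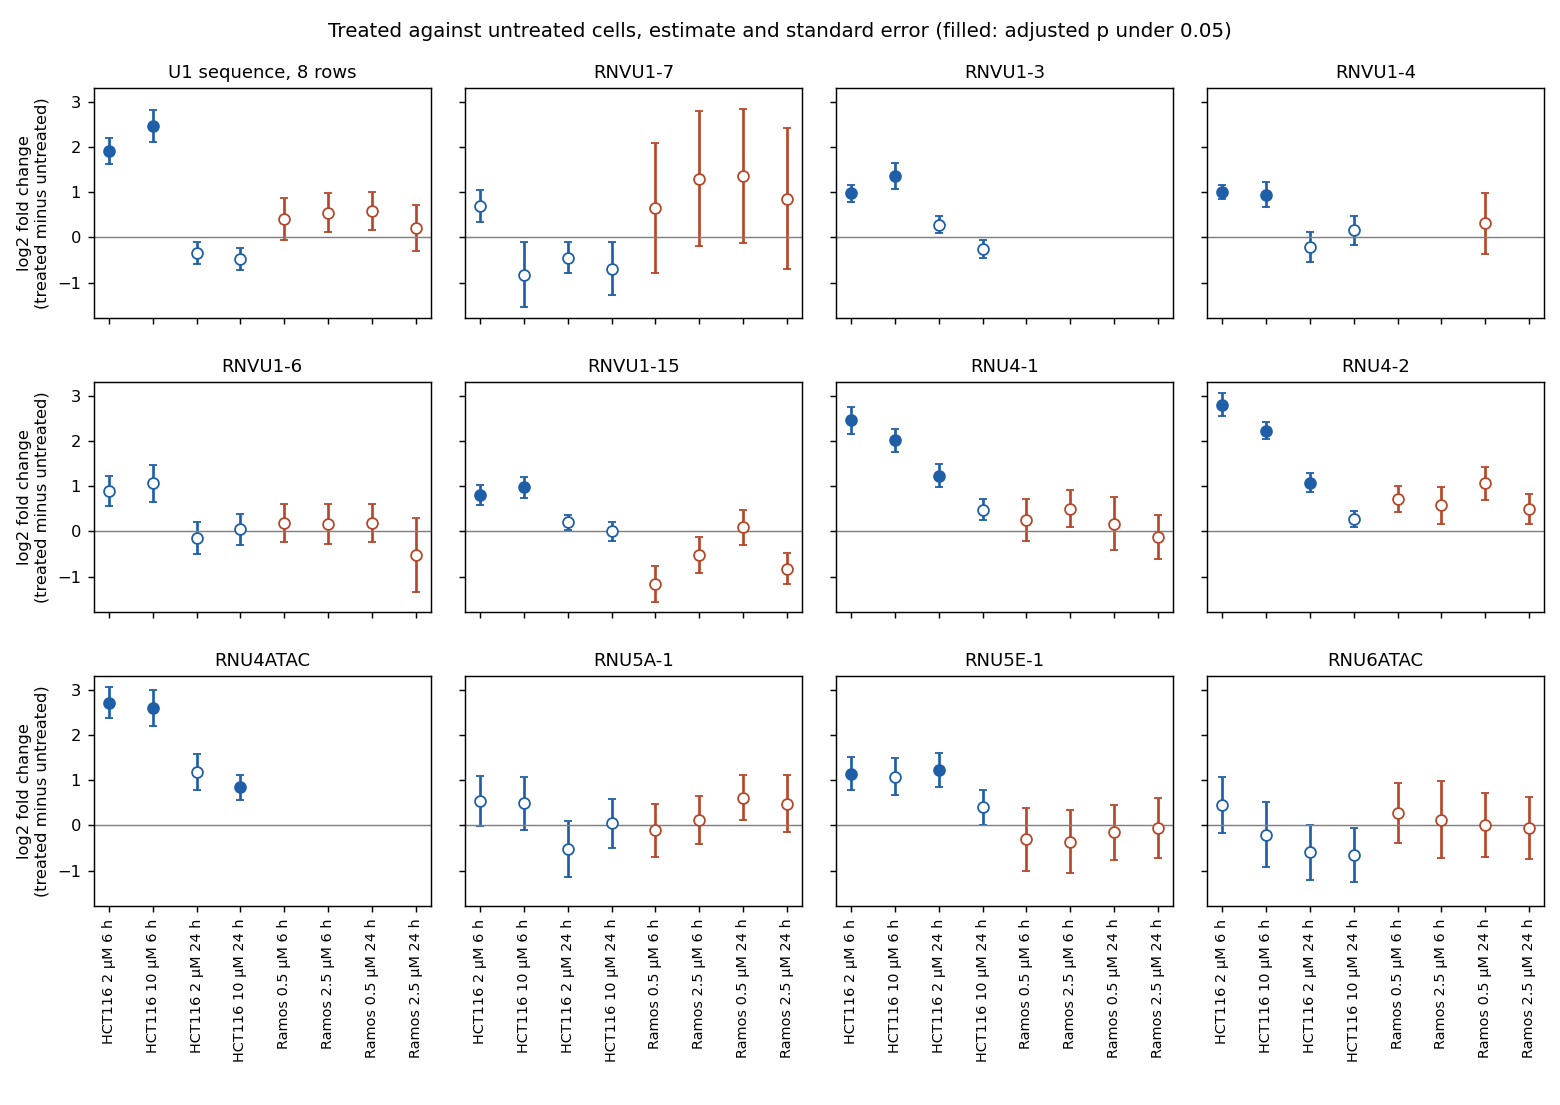
Log2 fold change against untreated cells (points) with its SE (bars) in the 8 treated groups (horizontal axis), one panel each for the summed 8 rows of the U1 sequence and 11 snRNA genes, HCT116 in blue and Ramos in red, with filled points for an adjusted p under 0.05 and no point where a gene was not tested. Filled points lie in HCT116 at 6 h for the U1 sum, RNVU1-3, RNVU1-4, RNVU1-15, the U4 genes, RNU4ATAC and RNU5E-1 (the last at 2 μM alone), at 24 h for the U4 genes and RNU5E-1 at 2 μM and RNU4ATAC at 10 μM, and no Ramos point is filled.

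U1, the snRNA that pairs with the 5′ splice site, had the highest level of the families. The sum of the 8 rows of its sequence was 2593, 2696 and 1309 RPKM in untreated HCT116. It was 5633, 9344 and 9433 at 2 μM for 6 h and 10702, 8541 and 16863 at 10 μM for 6 h, so that each treated library lay above each untreated one. The rises were past the test at 2 μM (log2 fold change 1.92, SE 0.29, adjusted p = 0.000693) and at 10 μM (log2 fold change 2.46, SE 0.35, adjusted p = 0.00308) by limma. At 24 h the sum was 1786, 1395 and 1762 at 2 μM and 1341, 1589 and 1586 at 10 μM, within the range of the untreated libraries. The differences from untreated cells were -0.35 (SE 0.24, adjusted p = 0.303) and -0.48 (SE 0.23, adjusted p = 0.140), neither past the test. From 6 h to 24 h the sum fell at both doses (-2.27, adjusted p = 0.000194, and -2.94, adjusted p = 0.00111). Adding RNVU1-7 to the sum, also after seeing the data, left the rises at 1.75 and 2.22.

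Row by row, the 4 U1 genes, which lie on chromosome 1 (RNU1-1 at chr1:16514122-16514285, RNU1-2 at chr1:16895980-16896143, RNU1-3 at chr1:16666785-16666948 and RNU1-4 at chr1:16740516-16740679), split into a lower and a higher pair. RNU1-2 (ENSG00000207005) was at 571, 666 and 310.3 RPKM in untreated HCT116, 1176, 2219 and 2108 at 2 μM and 1678, 1349.6 and 3119 at 10 μM for 6 h. RNU1-4 (ENSG00000207389) had the same values as RNU1-2 in untreated cells and was at 1176, 2022 and 2108 and 2027, 1685 and 3119 at 6 h. Both rose at each dose (RNU1-2 1.85 and 1.97, RNU1-4 1.80 and 2.16 on the log2 scale), without overlap. Scaled to genes of up to 300 bases, both calls were lost at 10 μM (RNU1-2 0.56, adjusted p = 0.176, and RNU1-4 0.75, adjusted p = 0.0658). RNU1-1 (ENSG00000206652) was at 77.1, 7.65 and 17.02 in untreated cells, 157, 372 and 559.9 at 2 μM and 861, 62.2 and 1097 at 10 μM. RNU1-3 (ENSG00000207513), equal to RNU1-1 in untreated cells and at 10 μM for 6 h, was at 189, 229 and 146 at 2 μM. RNVU1-18 (ENSG00000206737, chr1:143729407-143729570), also equal to RNU1-1 in untreated cells, was at 157, 229 and 146 at 2 μM and 941, 2621 and 1097 at 10 μM. The 3 rows were called at both doses, but RNU1-1 and RNU1-3 overlapped untreated cells at 10 μM, and RNU1-1 spanned over 10-fold between untreated replicates. At 10 μM the calls of RNU1-1 and RNU1-3 (log2 fold change 4.13, SE 1.18, adjusted p = 0.0347 for each) were lost without untreated replicate 2 or 3 or without treated replicate 1 (adjusted p from 2.4e-06 to 0.117 over all alternatives).

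At 24 h the same rows were lower than at 6 h. RNU1-2 and RNU1-4 shared the values 367, 309 and 404 at 2 μM and 202, 274 and 359 at 10 μM, both below each library at 6 h. At 10 μM the pair was also called as lower than in untreated cells (log2 fold change -0.86, SE 0.27, adjusted p = 0.0351 for each), with overlap, and the call was lost without untreated replicate 1 or 2 or treated replicate 1 or 2 (adjusted p from 0.000741 to 0.177). The 8-row sum, above, was not called there. RNU1-1 was at 79.6, 37.2 and 115 at 2 μM and 114, 124 and 37.2 at 10 μM, RNU1-3 at 79.6, 37.2 and 9.89 and 114, 124 and 37.2, and RNVU1-18 at 79.6, 46.1 and 9.89 and 114, 124 and 37.2. Against 6 h, all 5 rows fell at 2 μM, from -2.19 for RNU1-1 to -2.56 for RNU1-3. At 10 μM, RNU1-2 (-2.82), RNU1-4 (-3.02) and RNVU1-18 (-4.10) fell, while RNU1-1 and RNU1-3 were not called.

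**Figure D3:**
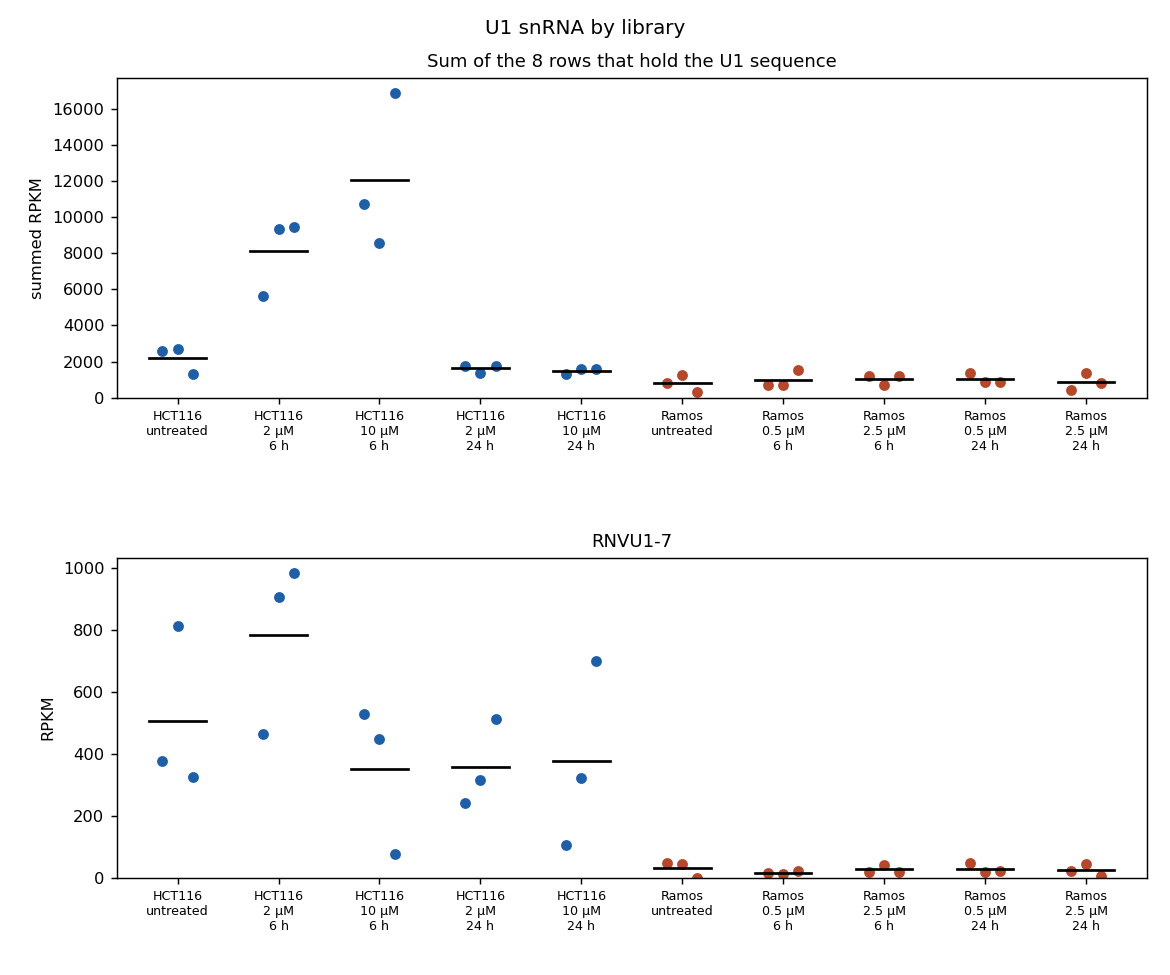
RPKM per library (points) and group mean (line) of the summed 8 rows of the U1 sequence and of RNVU1-7, which differs from it by 1 base, by group. The summed rows of HCT116 at 6 h lie at 5633 to 16863, above all other libraries, while RNVU1-7 overlaps between the HCT116 groups.

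Among the variant U1 genes, RNVU1-7 (ENSG00000206585, chr1:148038753-148038916) had the highest level outside the U1 sequence and was not called at 6 h. It was at 378, 815 and 324 RPKM in untreated HCT116, 465, 906 and 985 at 2 μM and 529, 447 and 75.6 at 10 μM for 6 h. The groups overlapped, and neither difference was called (0.69, adjusted p = 0.139, and -0.82, adjusted p = 0.415). Replicate 3 at 10 μM had the lowest RNVU1-7 of the HCT116 libraries and the highest U1 sum. At 24 h RNVU1-7 was at 242, 315 and 514 at 2 μM and 104, 323 and 699 at 10 μM, the former called as lower than at 6 h (log2 fold change -1.13, SE 0.31, adjusted p = 0.0185) with overlap, a call lost without replicate 2 or 3 at 6 h or replicate 1 or 2 at 24 h (adjusted p from 0.000970 to 0.229). Since 1 base separates RNVU1-7 from U1, its reads are uncertain.

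The other variant genes had single-digit to low double-digit levels in HCT116. RNVU1-3 (ENSG00000201183, chr1:148402715-148402875) was at 1.27, 1.43 and 1.25 RPKM in untreated cells, 2.36, 4.20 and 2.86 at 2 μM and 2.51, 6.45 and 4.33 at 10 μM for 6 h, with all treated libraries higher (log2 fold change 0.97, SE 0.18, adjusted p = 0.00212, and log2 fold change 1.36, SE 0.28, adjusted p = 0.0110). RNVU1-4 (ENSG00000277610, chr1:120942600-120942763), with A3G, C4T and C8T relative to RNU1-1, was at 1.72, 1.27 and 1.99, then 3.35, 4.12 and 3.89 and 2.92, 2.72 and 5.88 (adjusted p = 0.000743, and log2 fold change 0.95, adjusted p = 0.0370). RNVU1-15 (ENSG00000207205, chr1:144412576-144412740) was at 2.64, 3.78 and 2.13, then 4.86, 7.17 and 4.09 and 4.46, 7.65 and 6.17 (0.81 and 0.98, both called). Scaled to genes of up to 300 bases, none of the 3 was called at either dose, with log2 fold changes at 2 and 10 μM of 0.18 and 0.22 for RNVU1-3 (adjusted p = 0.516 and 0.618), 0.18 and -0.24 for RNVU1-4 and -0.061 and -0.27 for RNVU1-15, the direction turning for RNVU1-15 at both doses and for RNVU1-4 at 10 μM. All 3 genes carry changes in the pairing stretch, and none overlapped untreated cells at either dose. Nor did RNVU1-6, whose stretch is that of U1. Any tie of the stretch to the response was not tested. In reads, RNVU1-15 had 17, 27 and 14 in untreated cells and 19, 28 and 19 at 2 μM, in libraries of 39.0 to 43.3 M and 23.7 to 28.2 M reads. At 10 μM the calls of RNVU1-4 and RNVU1-15 were lost without untreated replicate 1 or 3, and also without untreated replicate 2 or treated replicate 1 (RNVU1-4) or treated replicate 2 (RNVU1-15), with adjusted p from 0.0145 to 0.585 and 0.00413 to 0.572.

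RNVU1-6 and RNVU1-1, whose pairing stretch is that of U1, were not called at 6 h. RNVU1-6 (ENSG00000201558, chr1:146052081-146052244) was at 6.87, 2.25 and 6.90 RPKM in untreated HCT116 and 10.04, 11.1 and 7.35 and 7.63, 9.96 and 15.7 at 2 and 10 μM (0.89, adjusted p = 0.0539, and 1.06, adjusted p = 0.0883). RNVU1-1 (ENSG00000207340, chr1:148362370-148362533) was at 0.625, 0.704 and 0.307, then 0.515, 3.61 and 2.38 and 0.673, 2.72 and 2.61 (1.15, adjusted p = 0.0525, and 1.14, adjusted p = 0.0619). RNVU1-19 (ENSG00000275538, chr1:120850819-120850985) was lower at 24 h. It was at 4.45, 3.59 and 4.07 in untreated cells, 2.28, 2.53 and 4.46 and 4.41, 3.56 and 6.10 at 6 h (not called), and fell to 3.29, 2.61 and 2.69 at 2 μM and 3.09, 2.73 and 2.34 at 10 μM for 24 h (log2 fold change -0.43, SE 0.12, adjusted p = 0.0238, and log2 fold change -0.50, SE 0.12, adjusted p = 0.0110), without overlap. At 2 μM that call was lost without untreated replicate 1 or 3 or treated replicate 2 or 3 (adjusted p from 0.00576 to 0.219).

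From 6 h to 24 h at 2 μM, RNVU1-3 (1.62, 2.52 and 1.19 at 24 h, -0.69), RNVU1-4 (0.529, 1.52 and 2.54, -1.21), RNVU1-6 (5.99, 4.18 and 3.13, -1.04) and RNVU1-15 (3.50, 3.40 and 2.91, -0.61) fell on the log2 scale. The calls of RNVU1-3 and RNVU1-15 were lost without replicate 3 at 24 h, and also without replicate 2 or 3 at 6 h or 1 at 24 h (RNVU1-3) or 2 at 24 h (RNVU1-15). At 10 μM, RNVU1-3 (0.855, 1.59 and 0.729 at 24 h, -1.62) and RNVU1-15 (2.71, 2.07 and 3.79, -0.98) fell, and both calls were lost without any 1 library at 24 h, that of RNVU1-15 also without replicate 2 at 6 h. RNVU1-4 and RNVU1-6 at 10 μM for 24 h were at 3.57, 0.868 and 1.91 and 3.99, 6.42 and 4.77, and RNVU1-1 at 24 h at 0.529, 0.760 and 1.17 and 0.629, 0.520 and 0.477, with no call. RNVU1-2 was above 0 in 1 library, RNVU1-14 stayed under 1 read in all libraries and RNVU1-17 was listed at 0 in all.

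U2, which pairs with the branch site, was nearly absent from the row of RNU2-1 (ENSG00000274585, chr17:43233787-43233977), which did not exceed 1.47 RPKM. It was at 0.402, 1.09 and 1.053 in untreated HCT116 and was not called at any dose or time. RNU2-2P, a row of the U2 symbol series that the rule leaves out for its final P, was at 60.5 to 542 RPKM over the 30 libraries. Its sequence was not compared with that of RNU2-1. The RNU2-2P row had a mean of 347 RPKM (SD 179, n = 3) in untreated HCT116 and 264 (SD 50.2) and 253 (SD 62.7) at 2 and 10 μM for 6 h, not called. At 10 μM for 24 h it fell to 80.9 (SD 21.2, log2 fold change -2.00, SE 0.32, adjusted p = 0.00136).

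U4, which keeps U6 inactive until the spliceosome is activated, rose in both of its genes. RNU4-2 (ENSG00000202538, chr12:120291763-120291903) was at 54.9, 58.3 and 46.7 RPKM in untreated HCT116, 243, 603 and 355 at 2 μM and 329, 209 and 229.5 at 10 μM for 6 h. RNU4-1 (ENSG00000200795, chr12:120293097-120293237) was at 61.3, 63.3 and 39.8, then 185, 484 and 291 and 297, 214 and 163. For both genes every treated library lay above every untreated one. RNU4-2 rose at 2 μM (log2 fold change 2.80, SE 0.26, adjusted p = 7.61e-05) and 10 μM (log2 fold change 2.23, SE 0.18, adjusted p = 0.000522), and RNU4-1 likewise (log2 fold change 2.46, SE 0.30, adjusted p = 0.000264, and log2 fold change 2.01, SE 0.25, adjusted p = 0.00204). Scaled to genes of up to 300 bases, the calls held at 2 μM and were lost at 10 μM (RNU4-2 0.83 and RNU4-1 0.61).

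At 24 h with 2 μM the U4 genes lay between untreated cells and 6 h, and with 10 μM they overlapped untreated cells. RNU4-2 was at 134, 76.3 and 141 RPKM at 2 μM and 46.8, 86.6 and 64.6 at 10 μM, and RNU4-1 at 149.6, 81.6 and 166 and 49.8, 92.6 and 91.8. Both were above untreated cells at 2 μM (RNU4-2 1.08, adjusted p = 0.00557; RNU4-1 1.23, adjusted p = 0.00891) and neither was called at 10 μM (0.27, adjusted p = 0.279, and 0.48, adjusted p = 0.146). The call of RNU4-2 at 2 μM was lost when scaled to genes of up to 300 bases (adjusted p = 0.0612), and also with no filter on low values and in a robust limma fit. That of RNU4-1 was lost with no filter, in the robust fit and with all groups in 1 fit (adjusted p up to 0.0734 by limma). Both fell from 6 h to 24 h at each dose, with log2 fold changes of -1.72 and -1.96 for RNU4-2 and -1.23 and -1.53 for RNU4-1. The calls of RNU4-1 were lost without replicate 2 at 24 h with 2 μM, and with 10 μM without replicate 1 at 6 h or any 1 library at 24 h. Neither U4 gene dominated, since RNU4-2 was above RNU4-1 in 6 of 15 HCT116 libraries and 8 of 15 Ramos libraries.

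**Figure D4:**
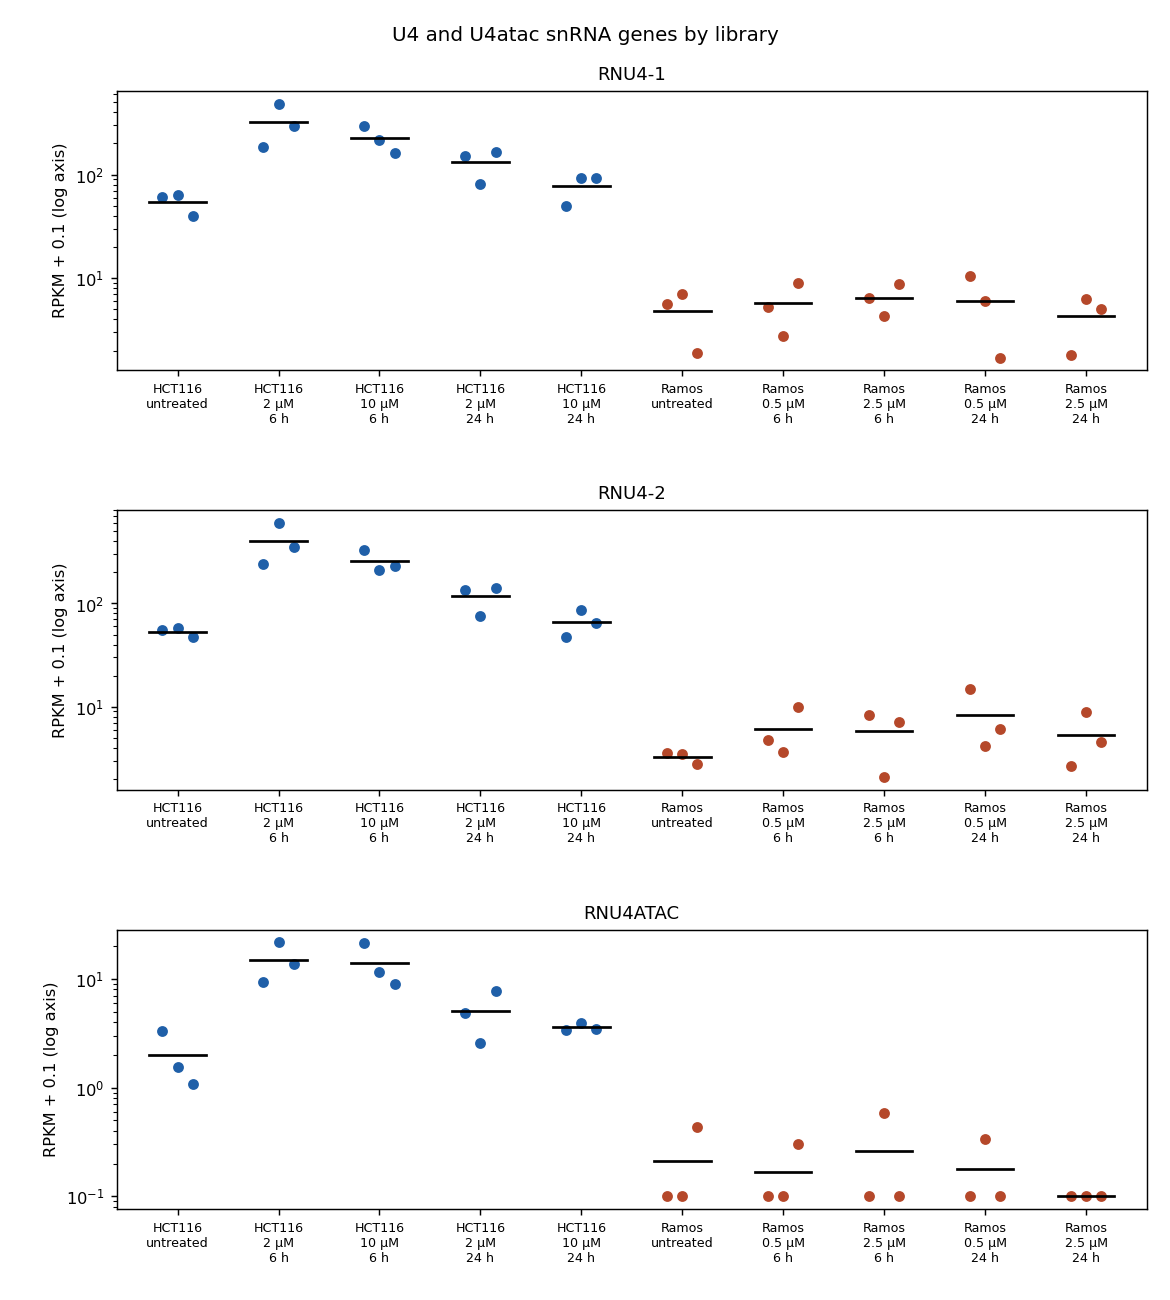
RPKM + 0.1 on a log axis per library (points) with the group mean (line) of RNU4-1, RNU4-2 and RNU4ATAC by group. All 3 genes are highest in HCT116 at 6 h, and Ramos libraries lie below all HCT116 libraries.

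The 5 U5 genes, which serve both spliceosomes, had few calls. RNU5E-1 (ENSG00000199347, chr1:11908152-11908271) held most U5 reads of HCT116, at 18.4, 38.3 and 10.5 RPKM in untreated cells, 35.5, 50.01 and 47.01 and 55.2, 38.96 and 33.9 at 2 and 10 μM for 6 h and 48.2, 36.1 and 58.2 and 17.5, 34.9 and 28.3 at 24 h. It was called as higher at 2 μM for 6 h (log2 fold change 1.14, SE 0.36, adjusted p = 0.0271) and for 24 h (log2 fold change 1.23, SE 0.37, adjusted p = 0.0384), with overlap each time. Both calls of RNU5E-1 were lost without untreated replicate 1 or 3, and without treated replicate 2 or 3 at 6 h or 1 or 3 at 24 h (adjusted p from 0.00171 to 0.548 and 0.00488 to 0.176). With scaling to genes of up to 300 bases that at 6 h was lost too (0.18). RNU5A-1 (ENSG00000199568, chr15:65296051-65296166) was at 11.04, 13.97 and 1.95, then 10.8, 14.1 and 7.17 and 11.4, 8.92 and 9.54 at 6 h and 5.61, 2.15 and 8.01 and 5.63, 9.32 and 6.95 at 24 h, with no call against untreated cells. Against 6 h it was lower at 2 μM for 24 h (-1.07, adjusted p = 0.0494), a call lost without replicate 1 or 2 of either time.

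RNU5B-1 (ENSG00000200156, chr15:65304677-65304792) was at 4.20, 9.11 and 3.25 RPKM in untreated HCT116, 7.36, 8.88 and 8.42 and 7.35, 11.2 and 5.24 at 6 h and 5.10, 1.88 and 6.08 and 3.85, 5.64 and 5.85 at 24 h, lower at 24 h than at 6 h with 2 μM (-0.97, adjusted p = 0.0347), a call lost without any 1 library at 6 h. RNU5D-1 (ENSG00000200169, chr1:44731055-44731170) was at 1.99, 4.18 and 0.217, 0.364, 3.28 and 1.53 and 2.22, 3.84 and 2.77 at 6 h and 2.99, 3.49 and 2.21 and 0.593, 0.981 and 1.69 at 24 h, lower at 24 h than at 6 h with 10 μM (-1.15, adjusted p = 0.0435), a call lost without replicate 1 or 2 at 6 h or any 1 library at 24 h. RNU5F-1 (ENSG00000199377, chr1:44721786-44721902) was at 2.41, 2.76 and 0.645, 4.69, 2.89 and 0.303 and 0.943, 0.317 and 0.458 at 6 h and 0.741, 0.799 and 2.19 at 2 μM for 24 h. At 10 μM for 24 h it fell to 0.588, 0.243 and 0.334, below each untreated library (log2 fold change -1.34, SE 0.36, adjusted p = 0.0164), a call lost without untreated replicate 1 or 2 or treated replicate 2 (adjusted p from 4.16e-06 to 0.115). Its treated mean was under the filter, which it passed through untreated cells alone. These minor copies rested on few reads, RNU5F-1 on 11, 14 and 3 in untreated cells.

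The copies of U5 differed in their order between lines. RNU5E-1 was above RNU5A-1 in 15 of 15 HCT116 libraries and in 5 of 15 Ramos libraries. The median share of U5 reads on RNU5E-1 was 66.1% in HCT116 and 41.7% in Ramos, and that on RNU5A-1 15.7% and 49.7%. RNU5B-1 had a median share of 10.99% in HCT116 and 3.10% in Ramos, while RNU5D-1 and RNU5F-1 had 3.82% and 1.76% in HCT116 and a median of 0% in Ramos. These shares are descriptions over 15 libraries of each line, with no test.

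**Figure D5:**
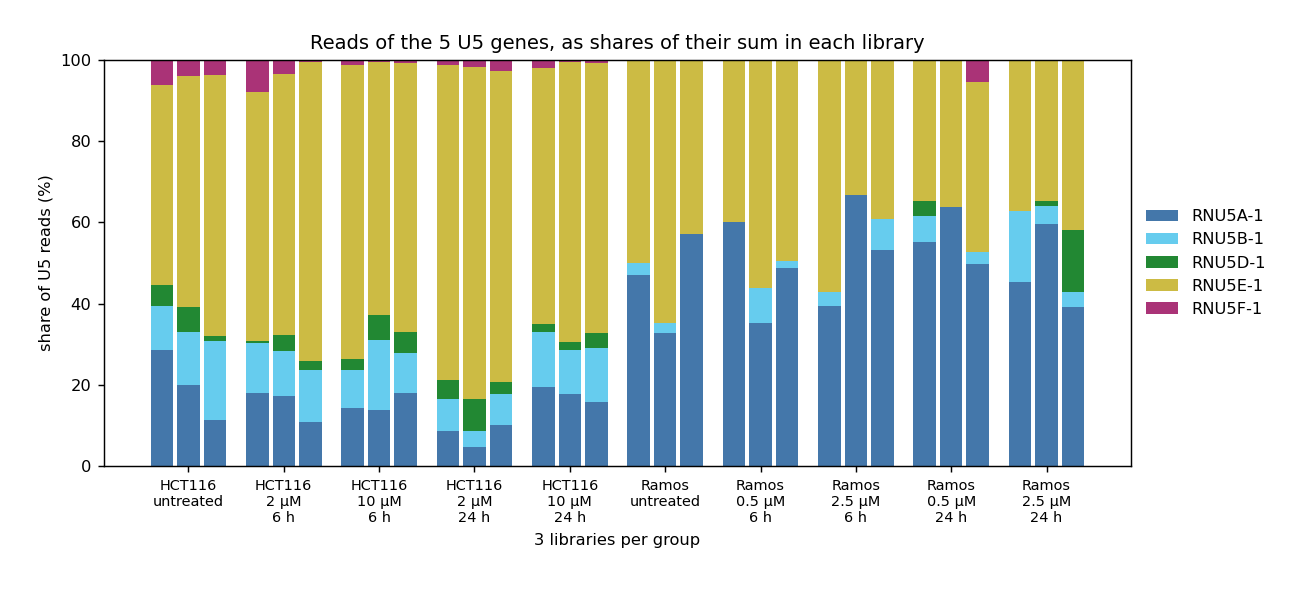
Stacked shares (percent) of U5 reads on each of the 5 U5 genes in each library. RNU5E-1 takes 49.1 to 81.8% in HCT116 libraries and 33.3 to 64.7% in Ramos libraries, where RNU5A-1 takes 32.8 to 66.7%.

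U6, the catalytic partner of U2, was hardly seen. The 5 U6 genes did not exceed 0.0715 RPKM in any library, under 1 read each, and the variant RNU6V was listed at 0 in all 30, so none was tested. Of the minor spliceosome, U11 (RNU11) stayed under 1 read in all libraries and U12 (RNU12) was listed at 0 throughout, as was U7 (RNU7-1). In all, 12 of the 34 genes never reached 0.5 RPKM and 4 were listed at 0 in every library, RNVU1-17, RNU6V, RNU12 and RNU7-1. A level at or near 0 in these libraries does not show that the cells lacked the RNA.

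RNU4ATAC (ENSG00000264229, chr2:121530881-121531007), which in the minor spliceosome does for U6atac what U4 does for U6, rose with U4. It was at 3.23, 1.45 and 0.990 RPKM in untreated HCT116, 9.31, 21.6 and 13.7 at 2 μM and 21.1, 11.4 and 8.86 at 10 μM for 6 h, without overlap (log2 fold change 2.72, SE 0.35, adjusted p = 0.000330, and log2 fold change 2.60, SE 0.40, adjusted p = 0.00389). In reads this was 16, 8 and 5 against 28, 65 and 49 at 2 μM. At 24 h it was at 4.78, 2.45 and 7.57 at 2 μM (1.18, adjusted p = 0.0512) and 3.25, 3.81 and 3.39 at 10 μM (0.84, adjusted p = 0.0391, called). The latter was lost without untreated replicate 2 or 3 or any 1 treated library, and with that scaling (adjusted p from 0.00115 to 0.259). It fell from 6 h to 24 h at both doses (-1.54 and -1.75), a call lost at 10 μM without any 1 library at 24 h. RNU6ATAC (ENSG00000221676, chr9:134164439-134164564) was not called against untreated cells, at 15.04, 8.06 and 1.60 in untreated cells, 5.03, 13.8 and 8.73 and 8.47, 6.18 and 2.55 at 6 h and 4.82, 2.23 and 5.09 and 2.18, 4.74 and 4.65 at 24 h, called only as lower at 24 h than at 6 h with 2 μM (-1.06, adjusted p = 0.0375), with overlap, a call lost without replicate 2 or 3 at 6 h or 2 at 24 h.

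When the copies of each snRNA were summed by family, 11 family sums were called over the 8 comparisons with untreated cells, all higher and all in HCT116. U1, variant U1 (a sum that holds RNVU1-18, of the U1 sequence), U4 and U4atac were called at both doses at 6 h. U4 and U4atac were called at 2 μM for 24 h, and U4atac at 10 μM for 24 h. U4atac is the single gene RNU4ATAC, which at 2 μM for 24 h lay at the threshold, with an adjusted p of 0.0494 in this fit and 0.0512 in the fit of single genes. Without replicate 3 of HCT116 at 10 μM for 6 h, 11 were called as well. The U5 sum was 40.9 RPKM (SD 26.01, n = 3) in untreated HCT116 and 67.5 (SD 10.5) and 64.1 (SD 12.6) at 2 and 10 μM for 6 h, not called (adjusted p = 0.0777 and 0.189). The variant U1 sum was 555 (SD 249), 990.04 (SD 298) and 1936 (SD 1019) and held RNVU1-18, whose sequence is that of U1. RNVU1-18 had means of 33.9, 178 and 1553 RPKM in these groups, and RNVU1-7, the other large row, 506, 785 and 351. The sum without RNVU1-18 was not tested, so these 2 calls do not show a rise of variant U1 apart from U1.

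Between doses, no gene was called. Of 22 genes, 0 differed between 10 and 2 μM at 6 h by limma, 1 at an unadjusted p under 0.05, where 0% of all genes were called. At 24 h 0 of 22 differed, 7 at an unadjusted p under 0.05, where 0.180% of all genes were called (0.0399% lower). The summed U1 was 0.54 (SE 0.34) on the log2 scale higher at 10 μM than at 2 μM at 6 h, RNU4-2 differed by -0.57 (SE 0.32) and RNU4ATAC by -0.12 (SE 0.36), none of them called. Without replicate 3 at 10 μM, RNVU1-18 was called as higher at 10 μM.

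In untreated cells, 14 of the 21 snRNA genes tested between lines reached a mean of 0.5 RPKM in each line. Of these 14, 6 were higher in HCT116 than in Ramos and 0 lower, where 80.3% of all genes past the filter in each line were called, 40.2% as higher. The other 7 passed the filter only through HCT116, which fixed their direction, and they are described with no test. With them 13 of 21 had an adjusted p under 0.05, against 84.6% of all genes tested (45.7% higher). The U4 genes did not overlap between lines. RNU4-2 was at 54.9, 58.3 and 46.7 RPKM in HCT116 and 3.44, 3.36 and 2.70 in Ramos (log2 fold change 3.88, SE 0.11, adjusted p = 6.21e-08), and RNU4-1 at 61.3, 63.3 and 39.8 and 5.51, 6.94 and 1.80 (3.53, adjusted p = 0.000178). RNVU1-7 was at 46.7, 42.9 and 0 in Ramos (5.53, adjusted p = 0.0181), a call lost without any 1 untreated HCT116 library. Of the 7 that passed through HCT116 alone, RNVU1-19 was at 0, 0.567 and 0 in untreated Ramos, RNU5B-1 at 0.592, 0.350 and 0, RNU4ATAC at 0, 0 and 0.333 and RNU2-1 at 0.165, 0 and 0.443. RNVU1-3 (1.27, 1.43 and 1.25 RPKM in untreated HCT116), RNU5D-1 (1.99, 4.18 and 0.217) and RNU5F-1 (2.41, 2.76 and 0.645) were listed at 0 in the 3 untreated Ramos libraries.

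RNU1-2 and RNU1-4 were at 153, 232 and 58.2 RPKM in untreated Ramos (1.94 higher in HCT116) and RNVU1-4 at 0, 1.35 and 0.258 (1.27, with overlap). The calls of RNU1-2 and RNU1-4 were lost without HCT116 replicate 2, and that of RNVU1-4 without any 1 HCT116 library or Ramos replicate 1 or 3. The 8-row U1 sum was 2593, 2696 and 1309 in HCT116 and 814, 1289 and 313 in Ramos (log2 fold change 1.60, SE 0.53, adjusted p = 0.0246). Not called were RNU1-1 (40.2, 309 and 20.2 in Ramos), RNU1-3 (40.2, 16.7 and 20.2), RNVU1-18, with the Ramos values of RNU1-3, RNVU1-6 (2.50, 3.47 and 0.515), RNVU1-15 (1.34, 2.87 and 0.768), RNU5A-1 (9.48, 4.55 and 1.46), RNU5E-1 (9.73, 8.68 and 1.06) and RNU6ATAC (0.501, 3.76 and 0). The line cannot be told apart from any difference in how the lines were grown and sequenced.

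In Ramos, treatment moved few snRNA genes. At 0.5 μM for 6 h 2 of 13 genes tested rose, where 23.6% of all genes were called (13.8% higher), and at 2.5 μM for 6 h 1 of 13, where 27.9% were called (17.3% higher). All 3 calls were rows of the U1 sequence. RNU1-3 went from 40.2, 16.7 and 20.2 RPKM to 44.7, 49.2 and 96.2 at 0.5 μM (log2 fold change 1.30, SE 0.34, adjusted p = 0.0242) and 29.5, 137 and 198 at 2.5 μM (log2 fold change 1.94, SE 0.62, adjusted p = 0.0475, with overlap), and RNVU1-18 had the values of RNU1-3 at 0.5 μM. These calls were each lost without untreated replicate 2 or 3, and without treated replicate 3 (at 2.5 μM also 2), and the 8-row sum was not called. It was 814, 1289 and 313 in untreated Ramos, 725, 701 and 1516 at 0.5 μM and 1180.3, 720.2 and 1209.6 at 2.5 μM for 6 h (0.41, adjusted p = 0.565, and 0.55, adjusted p = 0.390), and 1388, 899 and 885 and 449.7, 1369 and 819.6 at 24 h.

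At 24 h 0 of 14 genes were called by limma in Ramos at 0.5 μM, 1 at an unadjusted p under 0.05, where 0.0146% of all genes were called. At 2.5 μM 0 of 14 were called, 1 at an unadjusted p under 0.05, where 4.61% of all genes were called (3.30% higher, 1.31% lower). RNU4-2 in RPKM was at 4.64, 3.57 and 9.87 and 8.21, 1.98 and 6.94 at 6 h and 14.7, 4.02 and 5.96 and 2.55, 8.78 and 4.40 at 24 h, against 3.44, 3.36 and 2.70 in untreated Ramos. Both 0.5 μM groups lay above the untreated libraries and both 2.5 μM groups overlapped them, with no call. RNU4ATAC was listed at 0 in 11 of 15 Ramos libraries. Between 24 h and 6 h, RNVU1-15 was higher at 24 h with 0.5 μM (2.79, 1.45 and 0.979 against 0.248, 0.915 and 0.158, log2 fold change 1.26, SE 0.34, adjusted p = 0.0251), the 1 call of 14 genes, where 25.4% of all genes were called (11.9% higher), lost without replicate 1 or 3 at 6 h or 1 or 2 at 24 h (adjusted p from 2.11e-05 to 0.138). RNVU1-15 passed the filter through the 24 h libraries alone, which fixed its direction, so its value is no test of a difference between times. Of the 12 genes past the filter at both times, limma called 0. With 2.5 μM 0 of 14 were called by limma, 1 at an unadjusted p under 0.05, where 23.0% of all genes were called. Between 2.5 and 0.5 μM 0 of 13 genes were called by limma at 6 h and 0 of 15 at 24 h, 1 each at an unadjusted p under 0.05, where 0.429% and 4.25% of all genes were called (at 24 h 2.39% higher and 1.86% lower).

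The response at 6 h was compared between lines in 1 fit, as the change at 2 μM in HCT116 minus that at 2.5 μM in Ramos, doses that differ slightly. Of the 21 genes tested, 13 reached a mean of 0.5 RPKM in each line, and 3 of these rose more in HCT116 and 0 rose less, where 42.9% of all genes past the filter in each line were called and 12.2% in that direction. They were RNU4-2 (difference of log2 fold changes 2.23, SE 0.58, adjusted p = 0.00997), RNU4-1 (1.96, adjusted p = 0.0259) and RNVU1-18 (2.53, adjusted p = 0.0380). The calls of RNVU1-18 and RNU4-1 were lost in 9 and 5 of the 12 fits without 1 library, for RNVU1-18 all but those without untreated HCT116 replicate 1 or untreated Ramos replicate 2 or 3, and for RNU4-1 those without untreated HCT116 replicate 3, treated HCT116 replicate 2, untreated Ramos replicate 1 or 2 or treated Ramos replicate 2. With scaling to genes of up to 300 bases both were also lost (adjusted p = 0.0602 and 0.128). The 8-row U1 sum had a difference of 1.37 (SE 0.64, adjusted p = 0.109), not past the test. RNVU1-3, RNVU1-4 and RNU4ATAC passed the filter only through HCT116, and their values in the fit are no test of a difference between lines. Untreated and treated Ramos libraries held 0, 0 and 1 and 0, 2 and 0 reads of RNU4ATAC and 0, 7 and 1 and 0, 0 and 0 of RNVU1-4, and RNVU1-3 was listed at 0 in all 6. Counting these 3, 6 of 21 genes had an adjusted p under 0.05, against 40.6% of all genes tested. At 24 h, with 10 μM in HCT116 and 2.5 μM in Ramos, limma called 0 of the 14 genes that passed in each line, 0 at an unadjusted p under 0.05, where 24.5% of such genes were called. RNU5F-1 alone of the 20 genes tested had an adjusted p under 0.05, against 22.5% of all genes, but it was listed at 0 in these Ramos libraries and its value is the change in HCT116.

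Other small noncoding RNAs rose with U1 and U4 in HCT116 at 6 h, in 7 of 9 rows tested at 2 μM and 6 of 10 at 10 μM, with 0 lower, against 15.5% and 8.84% of all genes called as higher. The RNase P RNA RPPH1 had a mean of 10627 RPKM (SD 1649, n = 3) in untreated cells, 26225 (SD 5088) at 2 μM and 36466 (SD 15897) at 10 μM. The signal recognition particle RNA RN7SL1 was at 40831 (SD 13195), 83094 (SD 14057) and 122712 (SD 73495), and RN7SK, which holds the elongation factor P-TEFb, at 33164 (SD 6057), 55549 (SD 2490) and 67569 (SD 11741). The Y RNA RNY1 rose from 33.9 (SD 7.99) to 105.6 (SD 35.0) at 2 μM. In HCT116 at 24 h, 4 of 9 rows were higher at 2 μM and 3 of 9 at 10 μM, with 0 lower, against 16.6% and 19.5% of all genes. In Ramos 0 of 7 rows were higher in any treated group. At 6 h 1 was lower there at each dose, against 9.73% and 10.7% of all genes. At 24 h 2 were lower at 2.5 μM, against 1.31%, and limma called 0 at 0.5 μM (0 at an unadjusted p under 0.05). The 49 scaRNA genes, whose RNAs guide the modification of snRNAs, summed to 643 to 655 RPKM in untreated HCT116, 1124 to 1348 at 2 μM and 1615 to 2007 at 10 μM for 6 h. The part of this shift in the snRNA values was not tested. In the same libraries 12 of 22 snRNA genes were called as higher at 2 μM and 11 of 22 at 10 μM. RNVU1-1, RNVU1-6, RNVU1-7, RNVU1-19, RNU2-1, RNU5A-1, RNU5B-1, RNU5D-1, RNU5F-1 and RNU6ATAC were called at neither dose, nor was RNU2-2P. Of the other small RNAs, VTRNA2-1 and an RMRP row (mean 8393 RPKM in untreated cells, 6870 at 2 μM and 13497 at 10 μM) were called at neither dose. RNY3 and VTRNA1-3 were not called at 10 μM.

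Genes for proteins that make, assemble or hold snRNAs changed in both directions. Over all genes tested, 15.5% were higher and 31.8% lower at 2 μM and 8.84% and 21.2% at 10 μM for 6 h, and 16.6% and 10.8% at 2 μM and 19.5% and 15.7% at 10 μM for 24 h. In Ramos at 6 h, 13.8% were higher and 9.73% lower at 0.5 μM and 17.3% and 10.7% at 2.5 μM, and at 24 h 0.0146% were called at 0.5 μM and 4.61% at 2.5 μM. The counts below are to be read against these shares. In the list of snRNA transcription and 3′ end formation factors (SNAPc, Integrator and others), 4 of 30 were higher and 12 lower at 2 μM for 6 h, against 15.5% and 31.8% of all genes, and 3 higher and 7 lower at 10 μM, against 8.84% and 21.2%, with list medians of -0.09 and -0.14 against -0.12 and -0.11 over all genes. POU2F1, an octamer-binding activator of snRNA promoters, fell by 0.85 on the log2 scale at 10 μM for 6 h (8.10 to 4.28 RPKM, adjusted p = 0.00339), and SP1 fell by 0.82 (40.3 to 22.8, adjusted p = 0.00503). SNAPC4, the large subunit of SNAPc, rose by 0.80 (7.05 to 13.0, adjusted p = 0.0258). At 24 h the counts were 2 higher and 3 lower at 2 μM and 7 higher and 3 lower at 10 μM. In Ramos they were 1 and 5 at 0.5 μM and 4 and 5 at 2.5 μM for 6 h. At 24 h limma called 0 in Ramos at either dose, with 3 at an unadjusted p under 0.05 at 0.5 μM and 9 at 2.5 μM.

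Of the 14 tested genes for Sm and LSm proteins, which form rings on snRNAs, 9 were higher and 0 lower at 2 μM for 6 h, against 15.5% and 31.8% of all genes (list median 0.37), but 0 were called by limma at 10 μM for 6 h (median 0.20), 1 at an unadjusted p under 0.05. SNRPG rose from 132 to 199 RPKM (0.57, adjusted p = 0.00244), LSM6 from 27.2 to 40.6 (0.57, adjusted p = 0.000664) and LSM5 from 57.0 to 81.0 (0.50, adjusted p = 0.00275), each at 2 μM for 6 h. At 24 h 3 were higher and 1 lower at 2 μM and 6 higher and 1 lower at 10 μM. In Ramos 3 and 4 were higher and 1 and 1 lower at 6 h, and 0 and 2 higher at 24 h, with 0 at an unadjusted p under 0.05 at 0.5 μM.

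Among 19 genes of snRNA export, cap formation and assembly by the SMN complex, 4 were higher and 3 lower at 2 μM for 6 h, against 15.5% and 31.8% of all genes, and 0 higher and 3 lower at 10 μM. GEMIN7 rose from 10.8 to 17.1 RPKM (0.65, adjusted p = 0.000262) and GEMIN6 from 18.7 to 26.0 (0.46, adjusted p = 0.00687) at 2 μM for 6 h, both members of the SMN complex. CLNS1A, which passes Sm proteins to that complex, fell by 0.55 at 10 μM for 6 h (112 to 76.2, adjusted p = 0.00471). At 24 h 3 were higher and 2 lower at 2 μM, and 3 and 3 at 10 μM. In Ramos 1 was higher and 3 lower at 0.5 μM and 1 and 1 at 2.5 μM for 6 h, with 0 called by limma at 24 h (1 at 0.5 μM and 3 at 2.5 μM at an unadjusted p under 0.05).

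Of 8 genes of snRNA 3′ trimming and U6 modification, 2 were higher and 2 lower at 2 μM (15.5% and 31.8% of all genes) and 1 higher and 0 lower at 10 μM for 6 h, with 0 called by limma at 2 μM (0 at an unadjusted p under 0.05) and 2 higher at 10 μM for 24 h. TOE1, a 3′ exonuclease that trims snRNAs, rose from 10.4 to 15.6 RPKM (0.55, adjusted p = 0.00442) and USB1, which trims U6, from 22.02 to 28.4 (0.36, adjusted p = 0.0289), at 2 μM for 6 h. MEPCE, which caps 7SK, rose in Ramos at 2.5 μM for 6 h from 36.1 to 58.1 (0.68, adjusted p = 9.53e-05). In Ramos 2 were higher at 0.5 μM, 1 higher and 1 lower at 2.5 μM for 6 h, and 0 were called by limma at 24 h (0 and 2 at an unadjusted p under 0.05).

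Of 29 genes for proteins of the major snRNPs, 8 were higher and 7 lower at 2 μM (15.5% and 31.8% of all genes) and 0 higher and 2 lower at 10 μM for 6 h, then 4 higher and 1 lower and 4 higher and 4 lower at 24 h. The U2 snRNP genes SF3B4 (16.0 to 25.7 RPKM at 2 μM for 6 h, 0.68, adjusted p = 0.00224), SF3A3 (63.0 to 44.5 at 10 μM for 6 h, -0.51, adjusted p = 0.0358) and SF3B1 (128 to 91.97 at 10 μM for 6 h, -0.49, adjusted p = 0.0344) had the largest called changes of this list in either line. In Ramos 3 and 5 were higher and 1 and 2 lower at 6 h, with 0 called by limma at 24 h (0 at 0.5 μM and 8 at 2.5 μM at an unadjusted p under 0.05). Of 13 genes for proteins of the minor and U7 snRNPs, 2 were higher and 4 lower at 2 μM (15.5% and 31.8% of all genes) and 2 and 2 at 10 μM for 6 h, 1 and 1 and 2 and 2 at 24 h. LSM11 of the U7 snRNP fell by 0.79 (4.05 to 2.14, adjusted p = 0.000656), LSM10, its partner, rose by 0.57 (11.6 to 17.5, adjusted p = 0.00445), and RNPC3 of the U11/U12 snRNP fell by 0.54 (4.21 to 2.76, adjusted p = 0.0113), all at 2 μM for 6 h. In Ramos 1 and 2 were higher and 0 and 1 lower at 6 h, and 0 and 1 higher at 24 h, with 1 at an unadjusted p under 0.05 at 0.5 μM.

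Of 6 epithelial markers tested in HCT116, 2 were higher and 1 lower at 2 μM and 1 higher and 0 lower at 10 μM for 6 h, against 15.5% and 31.8% and 8.84% and 21.2% of all genes. At 24 h, 2 were higher and 0 lower at 2 μM and 2 higher and 1 lower at 10 μM, against 16.6% and 10.8% and 19.5% and 15.7%. EPCAM rose from 103 to 169 RPKM and KRT18 fell by 0.33 on the log2 scale (584 to 463) at 10 μM for 24 h, and KRT19 rose from 459.9 to 622 at 2 μM for 24 h. In Ramos at 6 h, 2 of 7 B cell markers were higher and 3 lower at each dose. Of all genes, 13.8% were higher and 9.73% lower at 0.5 μM and 17.3% and 10.7% at 2.5 μM. At 2.5 μM for 6 h CD79B rose from 376 to 611, and MS4A1 and PTPRC fell from 283 to 183 and from 63.9 to 41.9. At 24 h 0 were called by limma at 0.5 μM (0 at an unadjusted p under 0.05), where 0.0146% of all genes were called. At 2.5 μM for 24 h, 1 was higher and 1 lower, against 3.30% and 1.31% of all genes. The summed epithelial markers of HCT116 libraries were 1417 to 2233 RPKM and the summed B cell markers of Ramos libraries 1557 to 1714.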

How the data were processed

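Total RNA of 30 libraries (10 groups of 3) was depleted of rRNA and sequenced from a stranded kit (TruSeq Stranded Total RNA, Ribo-Zero). The deposited values are RPKM per gene, computed by the authors. The submitters' processing notes name RSEM, with no version, and the genome build is not given in the sources used here. All columns of the table were used. Symbols, gene types, positions and transcript sequences came from GENCODE release 29 (GRCh38), joined by Ensembl ID, with 57388 of 57992 genes matched and 604 not.

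Groups followed the sample titles, and 19 comparisons were made. Each was fitted with limma 3.58.1 (R 4.3.3, eBayes with a mean trend) on log2(RPKM + 0.5), over genes with a mean of at least 0.5 RPKM in the libraries compared, with Benjamini-Hochberg adjustment over all genes tested and a two-sided threshold of 0.05. A fold change on this scale understates that of genes near 0. An exact permutation test of 3 against 3 libraries cannot go below p = 0.1 and was not used. Scripts (Python 3.11.15, numpy 2.4.6, pandas 2.3.3) were tested on simulated data. Reads behind the values were recovered from the steps of low RPKM values (up to 20 reads). Because reads came out whole for 81.9 to 89.5% of low values and not nearly all, no count test was run.

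Members with a mean of at least 0.5 RPKM in a comparison were named, with every library's value where called. From each list of pathway genes the 3 called genes with the largest change over the 8 comparisons with untreated cells were named. The members and lists were chosen with earlier results of these data known. Alternatives were other pseudocounts, filters, scalings and fits, a replicate block and leaving out each library. Summing identical sequences, scaling to protein-coding genes or to genes of up to 300 bases, and leaving out replicate 3 of HCT116 at 10 μM for 6 h in the family sums were chosen after seeing the data. The split of the line comparisons by genes that reach 0.5 RPKM in each line was also made after seeing the data. No batch is given in the labels. Replicate libraries correlated at 0.988 to 0.997, and no pair was identical.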

Additional observations from a re-analysis of the deposited data

Results flagged for a closer look

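The results listed here are those in which the response differed between times or lines by a test of the difference itself (limma, adjusted p under 0.05), apart from 4 values described as no such test. Groups of 3 were too small for a test of single libraries standing apart.

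Between 24 h and 6 h in HCT116 with 2 μM, the log2 fold changes of the 16 genes called were -2.19 for RNU1-1, -2.30 for RNU1-2, -2.56 for RNU1-3, -2.26 for RNU1-4, -0.69 for RNVU1-3, -1.21 for RNVU1-4, -1.04 for RNVU1-6, -1.13 for RNVU1-7, -0.61 for RNVU1-15 and -2.37 for RNVU1-18. The U4, U5 and minor spliceosome genes among them were RNU4-1 at -1.23, RNU4-2 at -1.72, RNU5A-1 at -1.07, RNU5B-1 at -0.97, RNU4ATAC at -1.54 and RNU6ATAC at -1.06.

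With 10 μM the 9 genes called were RNU1-2 at -2.82, RNU1-4 at -3.02, RNVU1-3 at -1.62, RNVU1-15 at -0.98, RNVU1-18 at -4.10, RNU4-1 at -1.53, RNU4-2 at -1.96, RNU5D-1 at -1.15 and RNU4ATAC at -1.75. In Ramos with 0.5 μM, RNVU1-15 had a value of 1.26 at 24 h against 6 h. It passed the filter through the 24 h libraries alone, so this value is no test of a difference between times.

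The change at 6 h was called as different between HCT116 at 2 μM and Ramos at 2.5 μM for RNVU1-18 (2.53), RNU4-1 (1.96) and RNU4-2 (2.23), all higher in HCT116. RNVU1-18 has the U1 sequence, and the sum of all rows of that sequence was not called by limma (1.37, adjusted p = 0.109). The calls of RNVU1-18 and RNU4-1 were lost in several fits without 1 library, as given above. RNVU1-3 (0.97), RNVU1-4 (1.83) and RNU4ATAC (2.63) also had an adjusted p under 0.05, but they passed the filter only through HCT116, with Ramos libraries at 0 or a few reads, so their values are no test of a difference between lines. The same holds at 24 h, with 10 μM and 2.5 μM, for RNU5F-1 (-1.34), listed at 0 in the Ramos libraries compared. No explanation of these differences was tested.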

How the results depend on the processing

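Of 363 counts of calls under alternatives, 276 stayed within 1.5 times the reported count and 87 did not. Of 1461 refitted log2 fold changes of called genes, 1195 kept direction and call, 263 lost the call and 3 reversed, and 23 of 81 calls held under every alternative run. The 3 reversals came with scaling to genes of up to 300 bases: RNVU1-15 at 2 μM for 6 h (-0.061) and RNVU1-4 (-0.24) and RNVU1-15 (-0.27) at 10 μM for 6 h. The cause of these changes was not tested. Depth limits the low genes, which rest on a few reads.

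Numbers of snRNA genes called were as follows. At 10 μM for 6 h in HCT116, 7 were called with no filter and 7 with identical sequences summed. At 2 μM for 24 h there were 0 with no filter, 8 with an equal sum of RPKM, 1 with robust eBayes, 1 with all groups in 1 fit and 11 with the scaling to short genes (up to 300 bases). At 10 μM for 24 h there were 0, 8, 2, 0 and 9 in that order, and 3 with identical sequences summed. In Ramos at 0.5 μM for 6 h there were 0, 4, 0, 1 and 7 in that order, and 0 with identical sequences summed. At 2.5 μM for 6 h 0 were called with no filter, median-ratio scaling, robust eBayes, all groups, identical sequences summed and protein-coding scaling, and 9 with short-gene scaling. At 24 h short-gene scaling gave 4 at 0.5 μM and 10 at 2.5 μM, where an equal sum gave 2. Between 24 h and 6 h in HCT116, 2 μM gave 4 with no filter, 7 with robust eBayes and 8 with all groups, and 10 μM gave 4 with no filter. Between HCT116 doses, short-gene scaling gave 2 at 6 h and 4 at 24 h, where an equal sum gave 2. In Ramos between times, 0.5 μM gave 0 with no filter, 0 with a filter at 2 RPKM and 7 with short-gene scaling, and 2.5 μM gave 2 with the last. Between Ramos doses, short-gene scaling gave 3 at 6 h and 8 at 24 h, where an equal sum gave 1. Between untreated lines it gave 20. The line difference at 24 h had 0 calls with no filter, a filter at 2 RPKM and all groups, 2 with an equal sum and 10 with short-gene scaling. Of the family sums, 7 were called with robust eBayes and 27 with short-gene scaling. These 2 counts take both directions and both lines together, so they do not measure a rise.

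Leaving out 1 library gave, for HCT116 against untreated cells, 11 to 14 (2 μM) and 8 to 12 (10 μM) calls at 6 h and 2 to 5 and 1 to 7 at 24 h. For Ramos it gave 0 to 4 (0.5 μM) and 0 to 2 (2.5 μM) at 6 h and 0 to 0 and 0 to 2 at 24 h. Between times it gave 11 to 15 (2 μM) and 4 to 13 (10 μM) in HCT116 and 0 to 1 and 0 to 2 in Ramos, and between doses 0 to 2 (6 h) and 0 to 0 (24 h) in HCT116 and 0 to 0 and 0 to 2 in Ramos. It gave 8 to 16 between untreated lines, and 4 to 11 (6 h) and 0 to 1 (24 h) for the difference between lines. Where an arm had 2 libraries, the fit pooled the spread over groups. At 10 μM without replicate 3 at 6 h, 13 genes were lower at 24 h than at 6 h, against 9 with it.

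Replicate numbers did not pair the samples: in 0 of 17 comparisons did all 3 pairs correlate above 0.1 (mean r -0.177 to 0.0968). With the number as a replicate block, 14 genes were called at 2 μM and 15 at 10 μM for 6 h in HCT116, 0 in Ramos at 2.5 μM for 6 h, 1 between HCT116 doses at 6 h, 2 between times at 0.5 μM in Ramos and 0 for the line difference at 24 h.

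All-gene medians at 6 h moved from -0.12 and -0.11 to -0.42 and -0.56 with an equal sum of RPKM, and to 0.01 at each dose with median ratios.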

Other observations

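Small nucleolar and Cajal body RNAs, which guide the modification of rRNA and snRNA, were summed by class without a test. The 49 scaRNA genes summed to 3023 to 3769 RPKM in untreated Ramos and 643 to 655 in untreated HCT116, the reverse of the order of U4. In HCT116 at 24 h they summed to 1009 to 1769.9 at 2 μM and 1539 to 1829.7 at 10 μM, above the untreated range. The 943 snoRNA genes summed to 9035 to 17088 in untreated HCT116 and 6909 to 38713 at 10 μM for 6 h, a range that spanned the untreated one. At 2 μM for 24 h they summed to 17587 to 23875, above the untreated range. The sums of 8394 to 15097 at 2 μM for 6 h and 8037 to 18949 at 10 μM for 24 h overlapped it.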
